A study of Bos taurus with 24 samples.

Results

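The genes described here are 9 genes with which a cell senses its sterols and takes up or moves cholesterol: SREBF1, SREBF2, SCAP, INSIG1, INSIG2, SCARB1, STARD4, NPC1 and NR1H2. They were picked by name for what is known of their function, at a time when earlier results of these data were known. All 9 have a row among the 24621 genes of the deposited count table. Each sample was a single bovine early blastocyst of quality grade 1, and the study asked how culture in medium with or without serum, and the sex of the embryo, change gene expression relative to embryos that developed in the cow. The in vivo derived embryos (5 male, 3 female) were flushed from superovulated Holstein cows. Ovaries of slaughterhouse Holstein cows gave the oocytes for both media. The in vitro embryos were harvested on the same day after insemination as the in vivo embryos, or 1 day earlier. The embryos of the serum-containing medium (3 male, 5 female) came from oocytes matured with 20% fetal bovine serum (FBS) and were cultured with 5% FBS. Those of the serum-free medium (5 male, 3 female) were matured with 20 ng/mL epidermal growth factor and cultured with 0.4% bovine serum albumin, insulin and transferrin at 5 µg/mL each, and selenium at 5 ng/mL. Semen of the same Holstein bull was used for all 3 conditions. Embryos are named A (in vivo), B (serum-containing) and C (serum-free) with the number of their label.

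Cholesterol in the membrane of the endoplasmic reticulum is read by SCAP, which escorts the precursors of the SREBP transcription factors (from SREBF1 and SREBF2) to the Golgi for activation when sterol is low. INSIG1 and INSIG2 hold SCAP back when sterol is high, and INSIG1 is itself a target of SREBP. Sterol then reaches the cell through receptors such as SCARB1, leaves the lysosome through NPC1, moves between membranes on carriers such as STARD4, and, as oxysterol, is sensed in the nucleus by liver X receptors such as NR1H2.

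The 24 embryos held between 3253051 and 9000447 counts in exons (median 4454031), so that 3 counts corresponded to 0.362 to 0.919 CPM (counts scaled to a common library total, here scaled by the TMM method over all 24 embryos). Counts of the Y-linked gene DDX3Y were 101 to 902 in the 13 male and at most 2 in the 11 female embryos. Those of XIST, which the paper lists as different between the sexes, were 297 to 1083 in females. In males they were 11 to 63, except for B5, which had 243. B5 also had the most exon counts, but A2, the male with the next most (5743015), had 20 XIST counts. The cause of the count in B5 was not tested. In serum-containing medium 4 embryos, B2, B3, B5 and B7, stood apart, with a median Spearman correlation with the other embryos of 0.743 to 0.853, against 0.886 to 0.920 for the other 20. The trophectoderm marker list (10 of 11 genes with a row, all 10 detected in each condition) summed to 7664 to 15026 CPM in vivo, 306 to 5258 CPM in serum-containing medium and 5031 to 27697 CPM in serum-free medium, although its defining gene CDX2 reached at most 11 counts. The hypoblast list summed to 4685 to 7514, 31.7 to 3033 and 3332 to 5946 CPM in the same order, with SOX17 at 0 in vivo and in serum-containing medium, while the 7 inner cell mass markers summed to 357 to 480, 345 to 681 and 251 to 475 CPM. Cumulus cell markers summed to at most 54.5 CPM in any embryo, with PTX3 at 0 throughout, and blood and uterine markers to at most 23.2 CPM. An early blastocyst is a mixture of cell types, so fewer cells of a type and less RNA per cell cannot be told apart in any value that follows.

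None of the 9 genes was differentially expressed, that is, had an adjusted p-value under 0.05 (edgeR's quasi-likelihood test) together with a fold change of at least 2, between any of the 3 conditions. Between in vivo and serum-containing embryos, 7 of the 9 reached the limit of 15 counts in every embryo of a group, and 2 of these 7, INSIG2 and NR1H2, had an adjusted p-value under 0.05, where 28.3% of all 7339 genes tested had one. Both were lower in serum-containing medium, as were 13.4% of all genes tested at that threshold. Differential expression with the 2-fold limit was called for 13.8% of all genes in this comparison, for 2.2% between in vivo and serum-free and for 8.91% between serum-containing and serum-free embryos. Without the 2-fold limit, 0 of 7 members passed between in vivo and serum-free embryos (background 5.82%) and 0 of 5 between the media (background 16.3%). At an unadjusted p-value under 0.05 the same test gave 4 of 7, 1 of 7 and 3 of 5 members in the 3 comparisons (41.2%, 21.5% and 33.1% of all genes tested). With DESeq2, 3, 1 and 3 members had an adjusted p under 0.05 in these comparisons, where 32.8%, 9.11% and 21.4% of all genes tested had one, and with edgeR's exact test 3, 0 and 3 members, where 31.3%, 7.90% and 20.1% had one. The 3 comparisons share their embryos, so their values are given side by side and are not independent of each other.

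**Figure D1:**
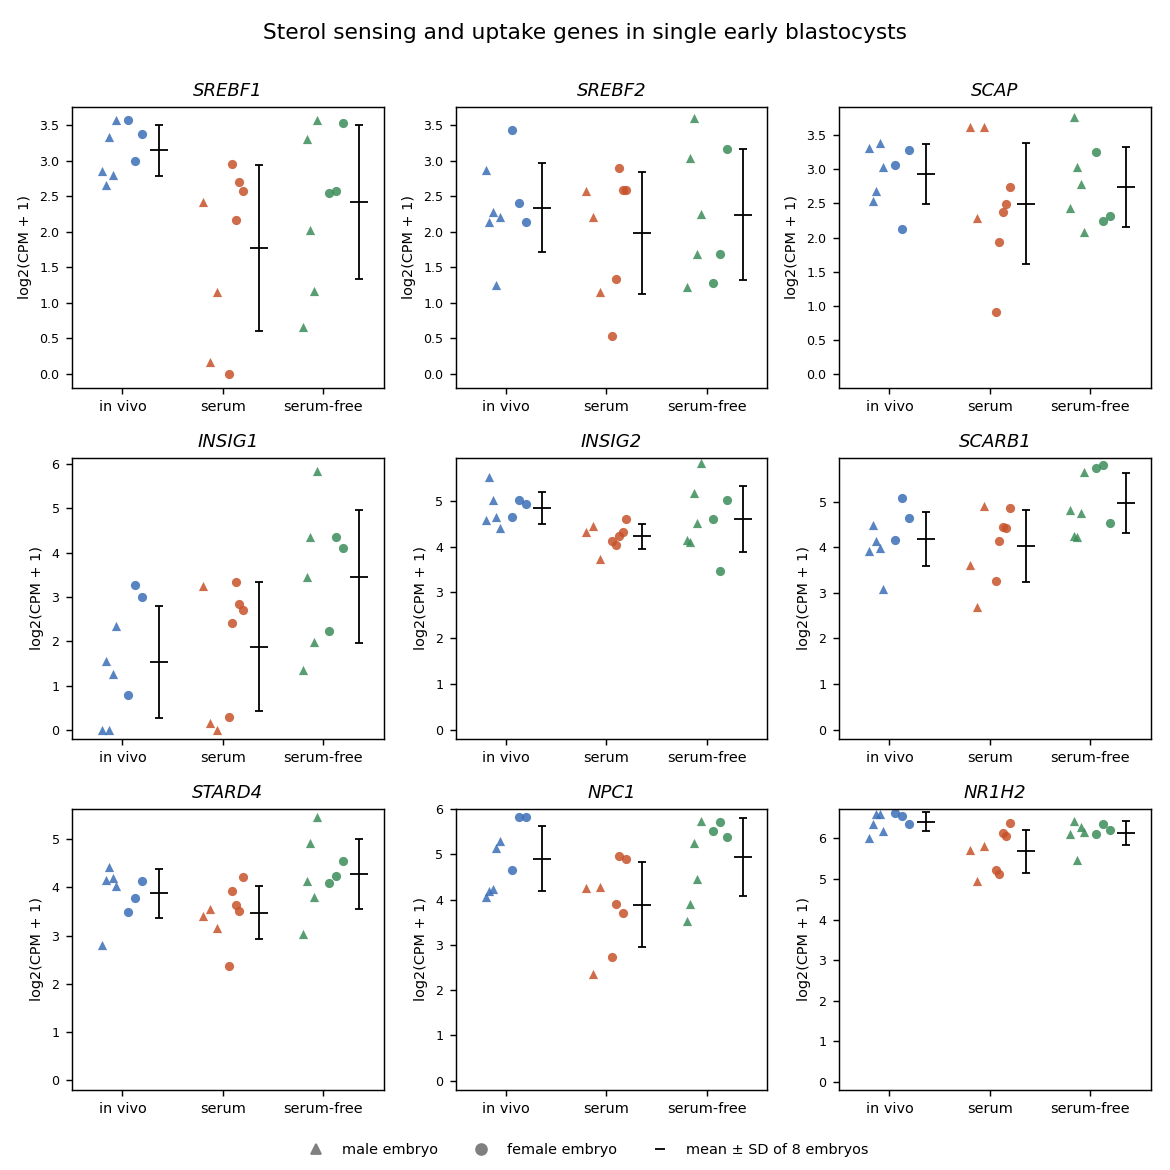
Level of each of the 9 genes in single embryos, as log2(CPM + 1) with a scale of its own per gene, in the 3 conditions (triangles, males; circles, females; black bars, mean ± SD of 8 embryos). NR1H2 and INSIG2 have lower means in serum-containing than in in vivo embryos with partly overlapping values, whereas INSIG1 runs from 0 to 56.1 CPM.

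Of the SREBP genes, SREBF1 differed more between embryos of a medium than between those derived in vivo, with a coefficient of variation of 27.7% in vivo, 77.6% with serum and 72.2% without serum. These values rest on 0 to 48 counts per embryo, and the variation of all genes was not read beside them. SREBF1 measured 5.33 CPM in the lowest, 8.01 in the median and 10.9 in the highest of the 8 in vivo embryos. In serum-containing medium the lowest, median and highest values were 0, 3.92 and 6.73 CPM, the 0 being embryo B2, where 3 counts would be 0.656 CPM. In serum-free medium they were 0.573, 4.92 and 11.0 CPM. Thus 6 of the 8 serum-containing embryos lay below every in vivo embryo, and B5 and B7 at 0.121 and 1.23 CPM were with B2 the lowest. The log2 fold change from in vivo to serum-containing medium was -1.29 ± 0.56 (SE), with an adjusted p of 0.0912, and the interval of 2 SE ran from -2.42 to -0.165. SREBF1 reached the count limit in this comparison through the in vivo embryos only. An exact permutation test of its log2(CPM + 1) values (two-sided, not adjusted for the 27 such tests of 9 genes in 3 comparisons) gave a difference of -1.38 and p = 0.00140. Without the 4 embryos that stood apart, the log2 fold change was -0.845 ± 0.344 with an adjusted p of 0.109. From in vivo to serum-free it was -0.492 ± 0.426 (adjusted p = 0.547).

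SREBF2, the factor that mainly drives cholesterol synthesis genes, did not reach the count limit in any condition. It measured 4.48 ± 2.52 CPM (SD, n = 8) in vivo, 3.51 ± 2.18 in serum-containing medium and 4.65 ± 3.64 in serum-free medium. The ranges of 1.38 to 9.76, 0.438 to 6.41 and 1.34 to 11.1 CPM overlapped throughout. Fitted without the count limit, its log2 fold changes were -0.344 (serum-containing over in vivo), 0.0498 (serum-free over in vivo) and 0.402 (serum-free over serum-containing), with adjusted p-values of 0.725, 0.994 and 0.753.

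SCAP, the sterol sensor and escort, was measured at low counts and overlapped between all conditions. It measured 6.91 ± 2.18 CPM in vivo, 5.59 ± 3.81 in serum-containing medium and 6.21 ± 3.18 in serum-free embryos (SD, n = 8), with B2 (0.875 CPM) and B3 (2.82 CPM) as the lowest of the serum-containing embryos. Relative to in vivo embryos the log2 fold change was -0.333 with an interval of 2 SE from -1.13 to 0.460 in serum-containing medium (adjusted p = 0.547), and -0.128, from -0.760 to 0.504, in serum-free medium (adjusted p = 0.862). SCAP, like SREBF1, reached the count limit through the in vivo embryos only, with 2 serum-containing and 1 serum-free embryo below it.

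The 2 INSIG genes, whose proteins retain SCAP, showed different profiles over the conditions. INSIG1 was scarce or undetected in the in vivo embryos, at 0 CPM in A1 and A3 (where 3 counts would be 0.816 and 0.602 CPM), 0.714, 1.38, 1.95, 4.09 and 7.02 CPM in A6, A4, A2, A8 and A9, and 8.55 CPM in A7. The serum-containing embryos were spread as widely, with B7, B5 and B2 at 0, 0.121 and 0.219 CPM and B3, B8, B6, B1 and B4 between 4.34 and 9.16 CPM. In serum-free medium every embryo had INSIG1 reads, at 1.53 CPM in the lowest, 13.1 in the median and 56.1 in the highest (C7), and 5 of the 8 embryos lay above every in vivo embryo. Because no condition had 15 counts in every embryo, INSIG1 was outside the main test. Without the count limit its log2 fold change from in vivo to serum-free was 2.45 ± 0.73 with an unadjusted p of 0.00254 and an adjusted p of 0.0910 (edgeR), where 1.36% of 19171 genes passed. From serum-containing to serum-free it was 1.93 ± 0.78 (adjusted p = 0.155), and from in vivo to serum-containing 0.515 ± 0.922 (adjusted p = 0.750). The exact permutation test (two-sided, unadjusted) gave p = 0.0163, 0.0521 and 0.604 for these 3 contrasts. Without the 4 embryos that stood apart, the 4 remaining serum-containing embryos had a mean of 7.32 CPM and INSIG1 passed the count limit, with a log2 fold change over in vivo of 1.27 ± 0.74 (adjusted p = 0.262).

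INSIG2, by contrast, had at least 40 counts in every embryo. It measured 20.2, 26.8 and 45.1 CPM in the lowest, median and highest in vivo embryo and 12.3, 18.3 and 23.3 CPM in serum-containing medium. In serum-free medium the values were 10.1, 22.7 and 55.4 CPM, the widest range of the 3. Among serum-containing embryos 6 of 8 were below every in vivo embryo, B5 and B8 being the exceptions. INSIG2 was 1.59-fold lower in serum-containing than in in vivo embryos, with a log2 fold change of -0.671 ± 0.210 and an adjusted p of 0.0228. The exact permutation test (two-sided, unadjusted) gave p = 0.000932. The adjusted p was 0.0623 without A2, 0.0538 without A7 and 0.0518 without B7, and remained under 0.05 when any other embryo was left out. Without B2, B3, B5 and B7 the log2 fold change was -0.566 ± 0.246 (adjusted p = 0.132). For serum-free over in vivo embryos the log2 fold change of INSIG2 was -0.0967, with an interval of 2 SE from -0.664 to 0.470 (adjusted p = 0.887).

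SCARB1 encodes the scavenger receptor that takes up cholesteryl esters from high density lipoprotein, and its highest levels were in serum-free medium. The lowest, median and highest in vivo embryos had 7.47, 16.8 and 32.9 CPM. The serum-containing embryos had 5.43 to 28.8 CPM and a mean of 17.4 ± 8.60 CPM (SD, n = 8), close to the in vivo mean of 18.5 ± 7.59. In serum-free medium the lowest, median and highest values were 17.8, 26.6 and 54.9 CPM, and C7, C10 and C3 at 49.1, 52.4 and 54.9 CPM exceeded all embryos of the other conditions. The log2 fold change from in vivo to serum-free was 0.873 ± 0.302 (adjusted p = 0.0912), and from serum-containing to serum-free 0.970 ± 0.360 (adjusted p = 0.0696). DESeq2 gave adjusted p-values of 0.0424 and 0.0376 for the same contrasts, and leaving out B8 gave 0.0497 for the latter with edgeR. That contrast had an adjusted p of 0.126 without the count limit and of 0.325 (log2 fold change 0.770) without the 4 embryos that stood apart. From in vivo to serum-containing medium the log2 fold change was -0.0889, with an interval of 2 SE from -0.782 to 0.604.

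NPC1, which exports cholesterol from the lysosome, had its lowest mean in serum-containing medium. It measured 15.8, 29.1 and 56.1 CPM in the lowest, median and highest in vivo embryo. The serum-containing values were 4.10, 15.9 and 30.2 CPM, with B5 and B2 (4.10 and 5.69 CPM) the lowest, and the serum-free values 10.5, 38.8 and 52.6 CPM. All 3 groups overlapped. The log2 fold change from in vivo to serum-containing medium was -0.986 ± 0.395 (adjusted p = 0.0676), and from serum-containing to serum-free 1.09 ± 0.42 (adjusted p = 0.0777). The former passed the threshold with edgeR's quasi-likelihood test when B4 (adjusted p = 0.0384) or B8 (0.0404) was left out, with DESeq2 (0.0428) and with the sex as a covariate (0.0362). Without the 4 embryos that stood apart it was -0.558 ± 0.381 (adjusted p = 0.343), and for serum-free over serum-containing 0.647 ± 0.424 (adjusted p = 0.495). Between in vivo and serum-free embryos the difference was 0.0957, with an interval of 2 SE from -0.598 to 0.789.

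STARD4, a soluble carrier that moves cholesterol between membranes, measured 14.4 ± 4.58 CPM in vivo, 10.7 ± 4.00 in serum-containing medium and 20.7 ± 11.2 in serum-free medium (SD, n = 8). The lowest serum-containing embryo was B2 with 4.16 CPM and the highest serum-free embryo C7 with 43.4 CPM. From serum-containing to serum-free the log2 fold change was 0.981 ± 0.348 (adjusted p = 0.0582), and it passed when B8 (adjusted p = 0.0390) or C1 (0.0368) was left out, and with DESeq2 (0.0316), whereas the adjusted p was 0.137 without the count limit and 0.358 (log2 fold change 0.803) without the 4 embryos that stood apart. For serum-free and serum-containing over in vivo embryos it was 0.556 (adjusted p = 0.319) and -0.423 (adjusted p = 0.291).

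NR1H2, the oxysterol receptor LXR beta, had at least 155 counts in every embryo. In vivo embryos had 63.1 CPM in the lowest, 87.2 in the median and 97.1 in the highest embryo. Serum-containing embryos had 30.0, 53.4 and 82.5 CPM, and serum-free embryos 43.0, 71.3 and 85.7 CPM. B5, B3, B2, B1 and B7, at 30.0 to 55.4 CPM, lay below every in vivo embryo, whereas B6, B4 and B8 lay within the in vivo range. NR1H2 was 1.60-fold lower in serum-containing than in in vivo embryos, with a log2 fold change of -0.681 ± 0.202 and an adjusted p of 0.0174, and the exact permutation test (two-sided, unadjusted) gave p = 0.00264. Leaving out any of the 16 embryos kept the adjusted p between 0.00649 and 0.0434. Without B2, B3, B5 and B7, the change was -0.357 ± 0.170 with an adjusted p of 0.168, where 14.8% of 7805 genes still passed. Over in vivo embryos, the serum-free log2 fold change was -0.240 ± 0.144 (adjusted p = 0.351), and from serum-containing to serum-free it was 0.442 ± 0.219 (adjusted p = 0.165).

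**Figure D2:**
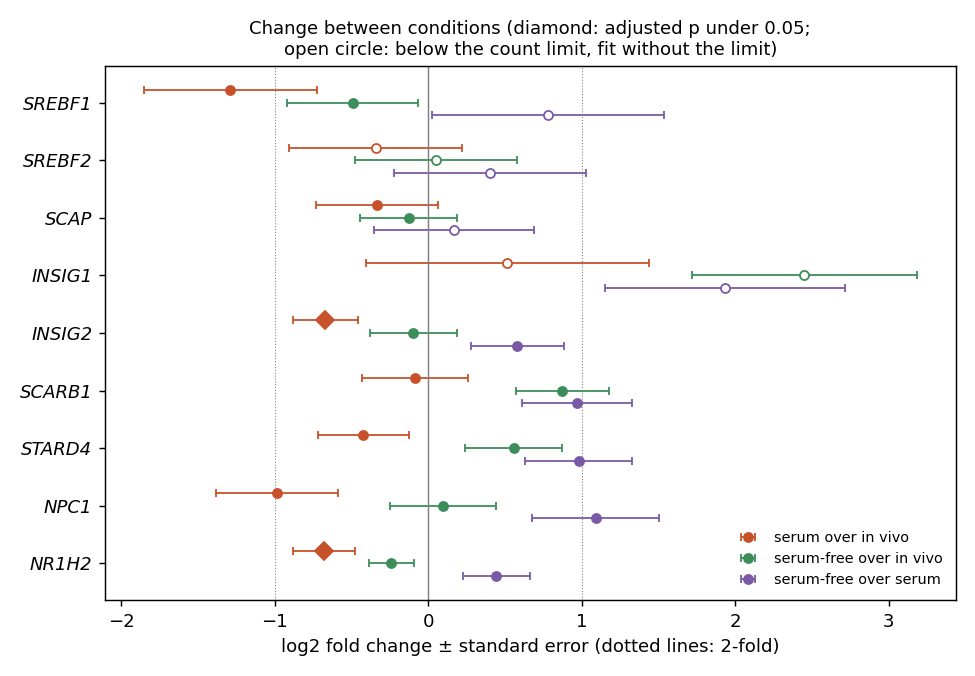
Log2 fold changes of the 9 genes (horizontal axis, bars ± SE, dotted lines at 2-fold) between the 3 conditions of 8 embryos each. The diamonds, INSIG2 at -0.671 and NR1H2 at -0.681 for serum-containing over in vivo, are the values with an adjusted p under 0.05, and open circles are values below the count limit, fitted without it.

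Over the members, the median log2 fold change was -0.671 from in vivo to serum-containing (7 tested; 0.0147 over all genes tested), -0.0967 from in vivo to serum-free (7 tested; 0.00304) and 0.970 from serum-containing to serum-free (5 tested; -0.0184). Without the count limit the medians over all 9 genes were -0.421, 0.0498 and 0.779. B2 was below every in vivo embryo in 7 of the 9 genes, and B3, B5, B7 and C1 in 4 each, while C7 was above every in vivo embryo in 5. How many of all genes lay outside the in vivo range in each embryo was not counted, so these numbers have no background. B2 also had the lowest median Spearman correlation of all embryos (0.743). The trophectoderm and hypoblast marker sums of serum-containing embryos, carried mainly by KRT8 and FN1, did not overlap those of in vivo embryos. Single markers without overlap were 3 of 10 (GATA2, KRT8 and KRT18) and 3 of 7 (PDGFRA, FN1 and HNF4A), all lower with serum. The share of all genes without overlap was not counted, so these counts have no background to be read against. HNF4A was near the level of 3 counts, with 0.689 CPM in the lowest in vivo and 0.368 CPM in the highest serum-containing embryo. TFAP2C, which overlapped, measured 125 to 263 CPM in vivo and 162 to 432 CPM with serum. For TEAD4 the ranges were 20.9 to 40.5 and 5.25 to 88.2 CPM, and for GATA6 14.0 to 27.2 and 5.69 to 34.3 CPM. In addition, the embryos that stood apart were all from this medium. Their part in the differences of INSIG2 and NR1H2 was not tested beyond leaving those embryos out.

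Within the sexes, 1 member passed in 1 comparison. NR1H2 was lower in male embryos of serum-containing than of in vivo origin, where 19% of 7762 genes passed, and 9.77% of those tested passed and were lower in serum-containing medium. It measured 81.9 ± 14.9 CPM in the 5 in vivo and 45.6 ± 13.6 CPM in the 3 serum-containing males (SD), a log2 fold change of -0.869 ± 0.279 with an adjusted p of 0.0483. Leaving out any of these 8 embryos gave adjusted p-values from 0.0329 to 0.119, with 1 of 8 under 0.05, that without B1. It was 0.0512 with DESeq2's size factors, 0.0785 without the count limit and 0.0555 with thinned counts. In females the means were 90.4 ± 8.86 CPM in 3 in vivo and 57.8 ± 21.5 CPM in 5 serum-containing embryos, and the log2 fold change was -0.623 ± 0.309 (adjusted p = 0.278), in a comparison in which 0.418% of 8138 genes passed. The difference between the sexes in this change was tested by an interaction term, which gave no gene of 8446 an adjusted p under 0.05, and the members' adjusted p-values for the 3 interactions were at least 0.929.

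For the other comparisons within a sex, 0 members passed. The background was 1.76% for serum-free against in vivo in males and 0.304% in females, and 6.74% for serum-free against serum-containing in males and 0% in females, where 961 of 8067 genes had an unadjusted p under 0.05. SCARB1 and NPC1 were the 2 members with an unadjusted p under 0.05 in the last of these, with log2 fold changes of 1.18 ± 0.43 and 1.32 ± 0.49 and an adjusted p of 0.401 each. Between males and females of the same condition, 0 members passed in vivo (background 1.26%), in serum-containing (0.173%) or in serum-free medium (0.152%). Among the 7 members that met the count limit in vivo, the largest difference was that of NPC1, with 24.7 ± 10.6 CPM in 5 males and 45.3 ± 18.4 CPM in 3 females and a log2 fold change of -0.894 ± 0.362 (unadjusted p = 0.0274, adjusted p = 0.299).

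Among embryos, INSIG1 moved with the enzymes of sterol synthesis. Over the 24 embryos, the genes whose log2(CPM + 1) was most like that of INSIG1, of 6873 genes with a mean of at least 10 CPM, were IDI1, EBP and CYP51A1 (r = 0.846, 0.814 and 0.777), all enzymes of the cholesterol pathway. As deviations from the condition means, r was 0.803, 0.782 and 0.671. With the mean log2(CPM + 1) of 21 sterol synthesis enzymes, INSIG1 had r = 0.782 (Spearman's rho 0.7815) and, within conditions, r = 0.686. The coefficient was 0.205 among the 8 in vivo, 0.832 among the 8 serum-containing and 0.937 among the 8 serum-free embryos. It was 0.709 without C7 and C4, the embryos farthest from the median enzyme level, and 0.808 without the 4 embryos that stood apart. These points share library depth and the scaling of their embryo, and the coefficients are given as descriptions with no test.

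**Figure D3:**
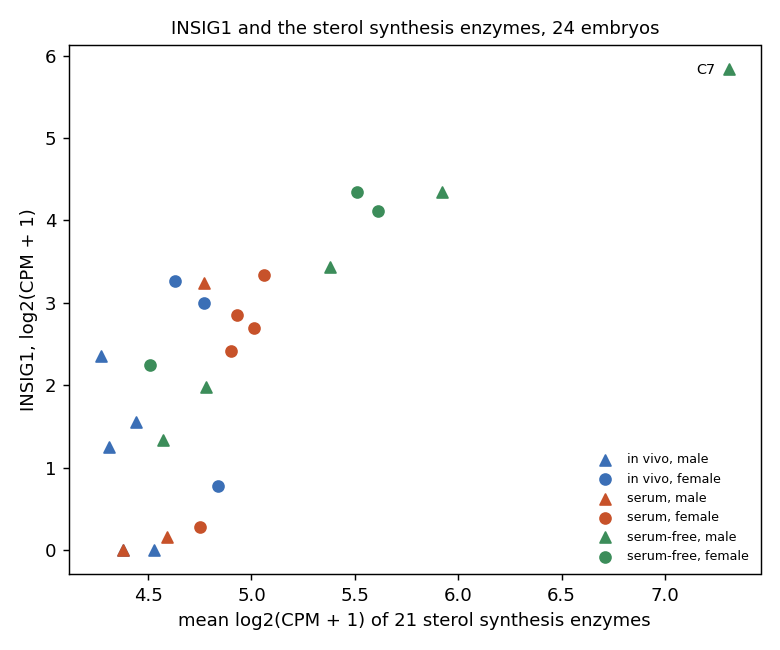
INSIG1 (vertical axis) against the mean of 21 sterol synthesis enzymes (horizontal axis), both in log2(CPM + 1), with a point per embryo coloured by condition (triangles, males; circles, females). C7 is highest on both axes, and the 5 embryos with the highest enzyme level, all serum-free, are also the 5 with the highest INSIG1.

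The mean enzyme level was 4.52 ± 0.21 in vivo, 4.80 ± 0.23 in serum-containing medium and 5.45 ± 0.91 in serum-free embryos (log2(CPM + 1), SD, n = 8), and C7 had the highest, 7.31. STARD4 followed it with r = 0.651, which was 0.321 without C7 and C4, and INSIG2 with r = 0.361, which was -0.257 without them. SCAP and NR1H2 had r = -0.236 and -0.0322. SREBF1 had r = 0.251 overall and 0.523 within conditions.

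Likeness was also read for SREBF1, NPC1 and STARD4. Among the genes closest to SREBF1 were GUK1 and LGALS1 (r = 0.797 and 0.796), and NPC1 was closest to ATP6V1B1, TIMP1 and SDC4 (r = 0.824, 0.808 and 0.794). The genes most like STARD4 were C1GALT1, CASK and ACLY (r = 0.795, 0.787 and 0.777), of which ACLY makes the cytosolic acetyl-CoA from which sterols and fatty acids are built. Among the 36 pairs of members, 10 had r above 0.5 over 24 embryos, the highest being INSIG1 with STARD4 (0.680), SREBF1 with NPC1 (0.656), STARD4 with NPC1 (0.634) and INSIG1 with NPC1 (0.631). The 2 INSIG genes had r = 0.258. Without the 4 embryos that stood apart, 4 of 36 pairs were above 0.5 and the median r of the pairs was 0.104, against 0.349 with them.

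The rest of the pathway was read from 6 lists of genes that hold none of the 9 members. Of the genes that process or turn over SREBPs (21 of 24 tested), 5 passed and rose from in vivo to serum-containing medium (23.8%). Of all genes tested there, 28.3% passed in either direction, and 1089 of 7339 passed and were higher. To serum-free medium 3 passed and rose (14.3%), where 5.82% of all genes passed in either direction. SAR1A, which builds the vesicle coats in which SCAP leaves the endoplasmic reticulum, rose from 103 ± 9.95 to 180 ± 21.3 CPM in serum-containing medium (log2 fold change 0.81, adjusted p = 0.000303), and its relative SAR1B by 1.15 on the log2 scale (adjusted p = 0.0168). RNF145, a ubiquitin ligase of the sterol-sensing system, rose by 0.984 (adjusted p = 0.00413), and PGRMC1, a haem-binding membrane protein known to bind SCAP and INSIG1, by 0.886 (adjusted p = 0.0150) and, in serum-free medium, by 1.19 (adjusted p = 0.00628). ERLIN2, a lipid raft protein of the endoplasmic reticulum, was the gene of this list that passed between the media (5%, against 16.3% of all genes). It was higher in serum-free medium (log2 fold change 0.808, adjusted p = 0.0144).

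Of the lipoprotein uptake genes, 6 of 18 could be tested, and 3 fell in serum-containing relative to in vivo embryos and were higher in serum-free than in serum-containing medium. Each time that was 50% of those tested, where 28.3% and 16.3% of all genes tested passed in either direction. LRPAP1, a chaperone of endocytic lipoprotein receptors, went from 103 ± 26.6 CPM in vivo to 21.9 ± 9.50 in serum-containing medium (log2 fold change -2.23 ± 0.26, adjusted p = 2.87e-05) and was 56.2 ± 20.4 CPM in serum-free medium (SD, n = 8), also below the in vivo level (adjusted p = 0.0214). The endocytic receptor LRP2 fell from 873 to 336 CPM (adjusted p = 0.00115) and its adaptor DAB2 from 608 to 284 CPM (adjusted p = 0.0195). The other named receptors, SORL1 and LRP8, had log2 fold changes of -0.509 and -0.412 in that comparison (adjusted p = 0.235 and 0.266).

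From in vivo to serum-containing medium 28.3% of all genes tested passed, and 13.4% passed and were lower. Of the sterol trafficking and storage genes other than NPC1 and STARD4, 7 of 18 tested (38.9%) fell there and 0 rose. They included the sterol carrier SCP2 (368 to 163 CPM, adjusted p = 0.00131), the oxysterol-binding proteins OSBPL1A and OSBPL2 (log2 fold changes -1.06 and -1.29), GRAMD1C, of a family that carries cholesterol inward from the plasma membrane (-1.57), and STARD3NL (-0.833), all with adjusted p-values of at most 0.00859. OSBPL1A was the gene of the list that passed from in vivo to serum-free medium (-0.625, adjusted p = 0.0326), a share of 5.56% against 5.82%. Without the count limit its adjusted p was 0.0548. SCP2 was the gene that passed between the media (5.88%, against 16.3%), at 436 CPM in serum-free medium (adjusted p = 0.00638). Of the LXR and oxysterol genes, partners of NR1H2, 0 of 5 tested passed between in vivo and serum-containing embryos, against 28.3% of all genes tested. LPCAT3, a phospholipid-remodelling target of LXR, rose in serum-free medium (173 to 267 CPM, adjusted p = 0.0295) as the gene of 5 that passed there (20%, against 5.82%). Without the count limit its adjusted p was 0.0589. The coregulators and partner NCOA1, RXRB, NCOA6 and NCOR1 had, relative to in vivo embryos, adjusted p-values of at least 0.298 with serum and 0.337 without it.

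Of 17 tested sterol synthesis enzymes, 5 rose in serum-containing medium and 8 in serum-free medium relative to in vivo, and 0 fell in either; between the media 4 of 16 were higher and 1, GGPS1, lower in serum-free medium. With serum the share, 29.4%, was near the 28.3% of all genes that passed in either direction. All 5 of these enzymes rose, however, and 1089 of 7339 genes tested passed and were higher with serum. Without serum the share was 47.1%, against 5.82% in either direction, and 247 of 7314 genes passed and were higher. Between the media the share that passed in either direction was 31.2%, against 16.3%. The paper had already reported cholesterol synthesis as over-represented among genes higher in these serum-free embryos, so the rise of this list there repeats a known result. HMGCS1, which opens the pathway, measured 44.3 ± 14.3 CPM in vivo, 69.8 ± 39.0 in serum-containing medium and 320 ± 471 in serum-free medium (SD, n = 8), with a log2 fold change from in vivo to serum-free of 2.88 ± 0.59 (adjusted p = 0.00623). In C7 it reached 1440 CPM, against a serum-free median of 121 CPM. FDFT1, or squalene synthase, rose to 110 ± 29.6 and 183 ± 149 CPM from 44.5 ± 9.32 (SD, adjusted p = 0.000145 and 0.00197). SC4MOL, a demethylase of sterols, rose by 1.10 and 1.65 on the log2 scale (adjusted p = 0.00535 and 0.0353). In serum-free medium it measured 382 ± 416 CPM (SD), a spread above its mean. FDPS rose in serum-free medium by 1.17 (adjusted p = 0.0162), and GGPS1, whose product leads to protein prenylation and not to sterol, rose in serum-containing medium by 0.751 (adjusted p = 0.0104).

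Fatty acid synthesis is the branch that SREBF1 mainly serves. Between in vivo and serum-containing embryos 1 of 7 tested genes passed, ACLY, which fell from 568 to 310 CPM (adjusted p = 0.0185). That is a share of 14.3%, where 28.3% of all genes passed in either direction and 13.4% passed and were lower. Between the media 4 of 7 passed (57.1%, against 16.3%), all higher in serum-free medium, namely FADS1 (log2 fold change 2.72), FASN (2.11), SCD (2.26) and ACLY (1.11), with adjusted p-values between 0.00982 and 0.0194. FADS1 and FASN also rose from in vivo to serum-free medium (2.47 and 0.969, adjusted p = 0.00474 and 0.0150). FADS1 reached the count limit in both comparisons through the serum-free embryos only, the group where it was highest. SCD measured 6.16 ± 5.81 CPM with serum and 29.2 ± 16.2 CPM without (SD), and the group through which it met the limit was not read. Without the count limit 4 of 16 genes of this list passed between the media, against 4.03% of 19155 genes. ELOVL5, an elongase, had adjusted p-values of 0.0523, 0.843 and 0.0786 in the 3 comparisons.

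**Figure D4:**
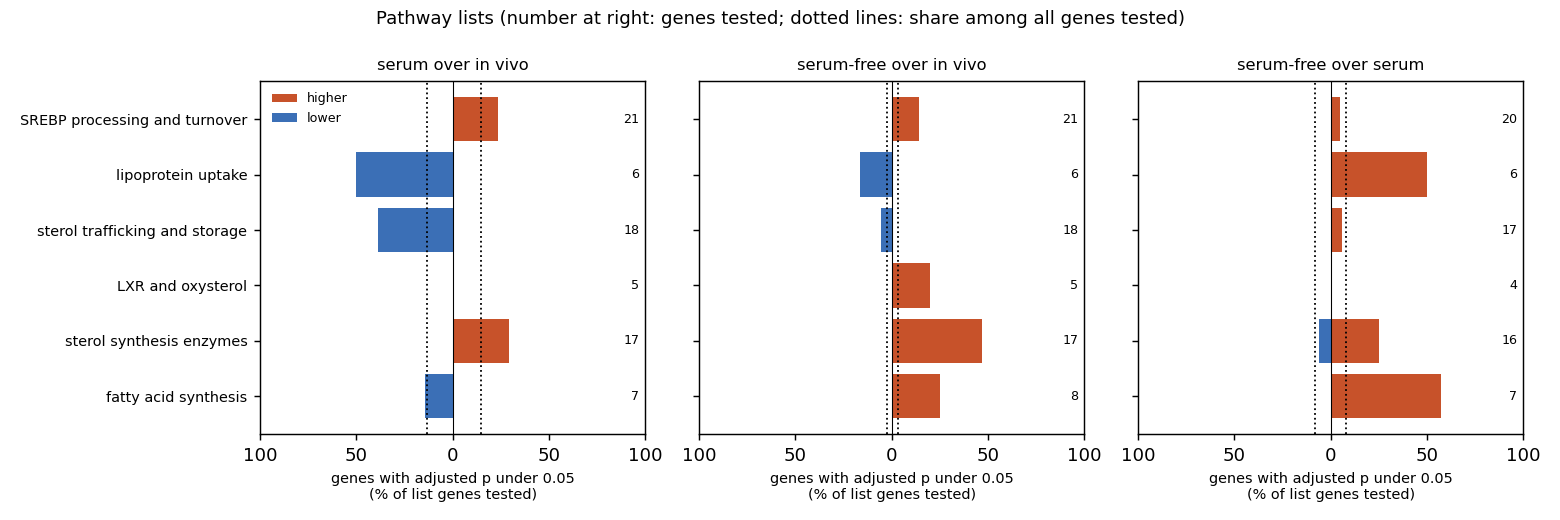
Share of tested genes in each of the 6 pathway lists with an adjusted p under 0.05, to the right where higher and to the left where lower in the condition named before "over" (numbers at the right, genes tested; dotted lines, the shares among all genes tested). Uptake and trafficking genes lie to the left in serum-containing medium (3 of 6 and 7 of 18), and sterol synthesis enzymes to the right in serum-free medium (8 of 17).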

How the data were processed

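Each of the 24 libraries was made from the amplified cDNA of 1 blastocyst (SMARTer, not strand specific). The authors mapped reads to the UMD3.1 bovine genome with CLC Genomics Workbench, and deposited raw counts per gene, taken from exon fragments with a unique mapping place, so reads shared with a near-identical gene are not counted. Gene symbols are those of the deposited table, and all 9 are in RefSeq's table of the later ARS-UCD2.0 assembly, whose coordinates were not used. The members and lists were chosen with earlier results of these data known.

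Counts were tested with edgeR 4.0.16 in R 4.3.3 (TMM scaling, quasi-likelihood test), 2 groups at a time, over genes with at least 15 counts in every embryo of at least 1 group, with Benjamini-Hochberg adjustment over all genes tested. Serum-containing and serum-free embryos were compared too, which the study's own tests left out. The SE is the log2 fold change divided by the square root of F. Each embryo is a replicate, so p-values measure the spread between embryos. The 8 in vivo embryos came from 3 cows, so some share a dam, and in vitro embryos may share a culture run; the labels do not say which, and the tests treat all embryos as independent. CPM values and log2(CPM + 1) were used as levels, and they were not compared between genes, as transcript lengths were not used. The floor of 3 counts covers counting error only. Within each list the text names at most the 5 genes with the smallest adjusted p over the 3 comparisons, plus HMGCS1 in any case, and, for the 4 members with the largest log2 fold changes, the 3 genes most like them. Some genes that this rule names are not reported here. The fits were checked on simulated counts with planted changes of 2 on the log2 scale. That check did not cover smaller changes or embryos that stand apart. Alternatives were DESeq2 1.42.0 and its size factors, edgeR's exact test, other count limits, thinned counts, a fit of all embryos together, the sex as a covariate and leaving out embryos. Leaving out the embryos that stood apart, the permutation tests and the enzyme mean were chosen after seeing the data.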

Additional observations from a re-analysis of the deposited data

Results flagged for a closer look

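In serum-free medium, NR1H2 was 43.0 CPM in the male embryo C4, far from the other 7 embryos of the group. The nearest had 67.6 CPM and the highest 85.7 CPM, and on the log2(CPM + 1) scale the gap was 0.654 of the group's range. Of the 27 groups examined (9 genes in 3 conditions) chance alone would mark about 5%.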

How the results depend on the processing

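No paired analysis was possible because no label ties the number of an embryo in a condition to an embryo of another condition. From in vivo to serum-containing medium, the 2 members with an adjusted p under 0.05 became 1 (NR1H2) without a count limit, 0 without the 4 embryos that stood apart, and 1 to 3 when 1 embryo was left out. No member was differentially expressed with the 2-fold limit, but 1 (NPC1) was in a fit of all 24 embryos, 1 with the sex as covariate, and 0 to 1 with an embryo left out. From in vivo to serum-free, DESeq2 gave 1 member with an adjusted p under 0.05 (SCARB1; 9.11% of all genes, against 5.82%). Between the media, where the main count was 0, DESeq2, the exact test and the fit of all 24 embryos gave 3 (SCARB1, STARD4 and NPC1; 21.4%, 20.1% and 21.7% of all genes, against 16.3%), a limit of 15 counts in every embryo gave 1 (STARD4; 16.0%) and leaving out 1 embryo gave 0 to 2. With the 2-fold limit these settings gave 1, 1, 2, 1 and 0 to 2. In males from in vivo to serum-containing medium, leaving out 1 embryo gave 0 to 2, the 2 without B1. In the fit of all 24 embryos, INSIG2 had an adjusted p of 0.0779. The sign of SCARB1 from in vivo to serum-containing medium turned without the embryos that stood apart (0.0947) and with single embryos left out (-0.215 to 0.118), as did, from in vivo to serum-free, INSIG2 (-0.343 to 0.0433) and NPC1 (-0.019 to 0.271). The interactions gave 0 members an adjusted p under 0.05 with DESeq2, its size factors or no count limit. Without the count limit, the number of pathway list genes that passed moved in 9 list comparisons and stayed equal or close in 9. From in vivo to serum-containing medium the lipoprotein uptake genes went from 3 to 5 and the sterol synthesis enzymes from 5 to 3. In serum-free medium the SREBP processing genes went from 3 to 1 and the enzymes from 8 to 7. The lists were not read without the 4 embryos that stood apart. Where not given by the construction of a setting, the cause was not tested. INSIG1 and SREBF2 were below 15 counts in embryos of every condition and so stayed outside the main test.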
